A study of Mus musculus with 12 samples.

Results

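Gene expression in GL261 tumours of mice given an antibody against PD-1 was compared with that in tumours of the Control group. The comparison took 6 of the 12 arrays of the series, 3 titled Anti-PD-1 and 3 titled Control, and covered 22180 genes. Each gene was represented by 1 probe set that carried a single gene symbol in the array annotation, namely the brightest one where a gene had several. GL261 is a mouse glioblastoma cell line that grows in C57BL/6 mice with an intact immune system. Per the labels, the cells were placed in the brains of male C57BL/6 mice aged 8 weeks, and the brains were taken on day 16. Anti-PD-1 mice received 10 mg/kg of the antibody into a vein, 2 times per week, without temozolomide. Control mice carried the same tumours; the labels name no agent for them and do not say whether they were given a vehicle or another antibody. The remaining groups, used for direct comparisons and for the estimate of spread, were TMZ (temozolomide, an alkylating drug, 30 mg/kg into the peritoneum) and Combination (both agents at these doses). All groups thus share 1 tumour line, 1 mouse strain, 1 sex and 1 day of collection, and the antibody clone and the days of dosing are not given in the labels.

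PD-1, encoded by Pdcd1, is an inhibitory receptor that T cells display after activation. Its ligand PD-L1, encoded by Cd274, is carried by tumour cells and macrophages and is itself induced by interferon gamma, and binding dampens T cell receptor signalling. Antibodies that block PD-1 remove this brake; T cells and natural killer cells that are active then release interferon gamma, which induces guanylate-binding proteins, antigen presentation genes and the chemokines that draw further T cells. In the brain, tumours of this kind also hold microglia and macrophages from the blood, which express many of the same interferon-induced genes.

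Values are log2 signals after robust multi-array averaging (RMA), which corrects background, gives the arrays equal distributions and condenses each probe set into 1 value. A difference of 1 on this scale is a doubling of signal. There is no read depth behind such values, and precision is limited by having 3 arrays in each group. All 22180 genes were fitted with limma over all 12 arrays, and a gene was called when its two-sided p, adjusted by the Benjamini-Hochberg method over all genes, was under 0.05. Errors of differences are standard errors (SE) from that fit. Whether each array stands for its own mouse is not stated in the labels, so p values measure the spread between these arrays, which may in part be technical.

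Against Control, expression in the Anti-PD-1 tumours was marked by lower interferon-induced and cell division genes and by small increases, among them microRNA genes. Of the 22180 genes, 65 were called (0.293%), 47 of them lower (0.212%) and 18 higher (0.0812%) in Anti-PD-1. Of the 47 that fell, 13 belong to the lists of mitosis or DNA replication genes. Of the 18 that rose, 8 are microRNA genes. In all 65 the Anti-PD-1 arrays lay apart from the Control arrays, as they did in 8.33% of all genes in the lower and 10.3% in the higher direction. The median difference over all genes was 0.0078, and 47.6% of genes were lower in sign.

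The arrays of each group were not alike. On the first principal component, which held 26.6% of the variance over all genes, the Anti-PD-1 arrays lay at 13.9, 9.93 and 6.26. Control replicates 1 and 2 lay at -20.1 and -26.4, and Control replicate 3 lay at -1.28, nearer to the treated arrays. Leaving out Control replicate 3 gave 686 called genes, and 1 gene was called when Control replicate 1, Control replicate 2 or any single Anti-PD-1 array was left out. It was 50, 13 and 18 without TMZ replicate 1, 2 and 3, and 8, 9 and 9 without Combination replicate 1, 2 and 3, arrays that enter only through the estimate of spread. Of the 65 genes, 54 were called in 3 or fewer of the 12 fits that left out 1 array. With all arrays 2993 genes had an unadjusted p under 0.05; when only the Anti-PD-1 and Control arrays were fitted, limma called 0 genes and 2672 had an unadjusted p under 0.05.

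**Figure D1:**
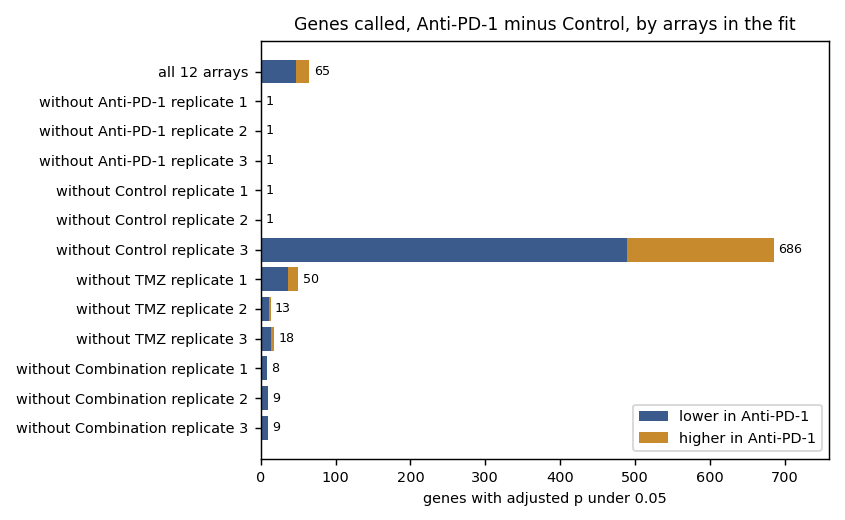
Number of genes with a limma adjusted p under 0.05 between Anti-PD-1 and Control (horizontal axis), with all 12 arrays and with each array left out in turn (rows); bar segments separate genes lower and higher in Anti-PD-1. All arrays gave 65 genes, leaving out Control replicate 3 gave 686, and leaving out any other Control or Anti-PD-1 array gave 1.

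The largest falls among the called genes, leaving aside predicted genes, receptor families and small RNAs, included genes of several known functions. Moxd1, the gene of a copper monooxygenase of the dopamine beta-hydroxylase family (probe set 17232215, chromosome 10), had signals of 5.70, 6.19 and 6.10 on the Anti-PD-1 arrays and 8.91, 9.43 and 7.99 on the Control arrays. Every Anti-PD-1 array was far below the lowest Control array, which was replicate 3. The signal was 6.86-fold lower (log2 difference -2.78 ± 0.34 SE, limma adjusted p = 0.0183), and the gene was called in 7 of the 12 fits with 1 array left out. Bst2, the gene of tetherin, which holds budding virus at the cell surface (probe set 17510345, chromosome 8), had 4.92, 5.08 and 5.76 in Anti-PD-1 and 8.05, 8.75 and 6.65 in Control. Anti-PD-1 replicate 3 and Control replicate 3 were the closest arrays, less than 1 log2 unit apart. Bst2 was 5.91-fold lower (-2.56 ± 0.45, adjusted p = 0.0495). Ifitm3, whose product blocks the entry of viruses into cells (probe set 17497718, chromosome 7), had 7.28, 7.41 and 8.16 in Anti-PD-1 and 9.66, 10.0 and 8.68 in Control (-1.83 ± 0.30, adjusted p = 0.043). Here too replicate 3 of each group stood nearest to the other group. Gbp3, a guanylate-binding protein that acts against microbes inside the cell (probe set 17403237, chromosome 3), had 4.61, 4.85 and 5.52 in Anti-PD-1 and 6.87, 7.08 and 6.11 in Control (-1.69 ± 0.30, adjusted p = 0.0495). Bst2, Ifitm3 and Gbp3 were each called in 2 of the 12 fits with 1 array left out.

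Among dividing-cell genes, Top2a, the topoisomerase that untangles replicated chromosomes (probe set 17268909, chromosome 11), had 4.37, 4.45 and 4.56 in Anti-PD-1 and 6.56, 6.78 and 5.63 in Control. The Anti-PD-1 arrays were close together and the Control arrays were spread, with replicate 3 lowest. Top2a fell 3.63-fold (-1.86 ± 0.27, adjusted p = 0.0326). Ccna2, the gene of cyclin A, which drives DNA replication and entry into mitosis (probe set 17404821, chromosome 3), had 4.86, 4.84 and 4.83 in Anti-PD-1 and 6.34, 6.61 and 5.76 in Control (-1.39 ± 0.17, adjusted p = 0.0183). It was called in 7 of 12 fits. Ect2, which activates the GTPase RhoA at the cleavage furrow (chromosome 3), had 4.58, 4.46 and 4.41 in Anti-PD-1 and 5.93, 6.33 and 5.34 in Control (-1.39 ± 0.19, adjusted p = 0.0309). Mki67, the Ki-67 gene used as a marker of cycling cells (chromosome 7), had 5.24, 5.43 and 5.47 in Anti-PD-1 and 6.84, 6.77 and 6.04 in Control (-1.17 ± 0.20, adjusted p = 0.0472). No array of one group reached the other group in any of these genes. The spindle gene Ckap2 (-1.11 ± 0.18, adjusted p = 0.0456) and the histone gene H2ac10 (-1.19 ± 0.20, adjusted p = 0.0432) fell as well.

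Further genes among the 15 largest of these falls were Lgals1, Lgals9 and Lgals3bp. Lgals1, which encodes galectin-1, a secreted lectin that can kill or restrain activated T cells, had 6.76, 6.84 and 7.07 in Anti-PD-1 and 8.72, 8.80 and 7.55 in Control (-1.46 ± 0.26, adjusted p = 0.04997). Lgals9, whose product galectin-9 binds the checkpoint receptor TIM-3, had 7.01, 7.23 and 7.25 in Anti-PD-1 and 8.40, 8.83 and 7.73 in Control (-1.16 ± 0.21, adjusted p = 0.04997). Lgals3bp, which encodes a glycoprotein that binds galectins, had 7.26, 7.61 and 7.84 in Anti-PD-1 and 8.89, 9.31 and 8.33 in Control (-1.28 ± 0.23, adjusted p = 0.04997). All 3 adjusted p values lay just inside the threshold, and all 3 calls held in 1 of the 12 fits, with adjusted p values of 0.000351 for Lgals1, 0.00124 for Lgals9 and 0.00395 for Lgals3bp without Control replicate 3. Parp12, an interferon-induced ADP-ribosyltransferase, fell as well (log2 difference -1.34 ± 0.22, adjusted p = 0.0461), and Prph, which encodes the intermediate filament peripherin, fell by 1.16 (SE 0.21, adjusted p = 0.04997).

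The rises in protein-coding and long noncoding genes named here were smaller than the falls above. Atp13a5, a P5-type ATPase gene that marks pericytes of the brain (probe set 17329533, chromosome 16), had 6.62, 6.64 and 6.67 in Anti-PD-1 and 6.15, 6.29 and 6.23 in Control (0.42 ± 0.06, adjusted p = 0.0309). Here Control replicate 3 lay between the other Control arrays. Kcnq1ot1, an imprinted long noncoding RNA that silences neighbouring genes, had 6.88, 6.93 and 6.99 in Anti-PD-1 and 6.45, 6.46 and 6.56 in Control (0.45 ± 0.08, adjusted p = 0.0472). Acvr2a, an activin receptor gene, had 8.17, 8.24 and 8.18 in Anti-PD-1 and 7.71, 7.79 and 7.93 in Control (0.39 ± 0.07, adjusted p = 0.0472). The noncoding Pcsk2os1, from the strand opposite Pcsk2, rose by 0.47 ± 0.08 (adjusted p = 0.04997), and Pou2f3, a transcription factor of tuft cells, rose by 0.40 ± 0.06 (adjusted p = 0.0421).

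**Figure D2:**
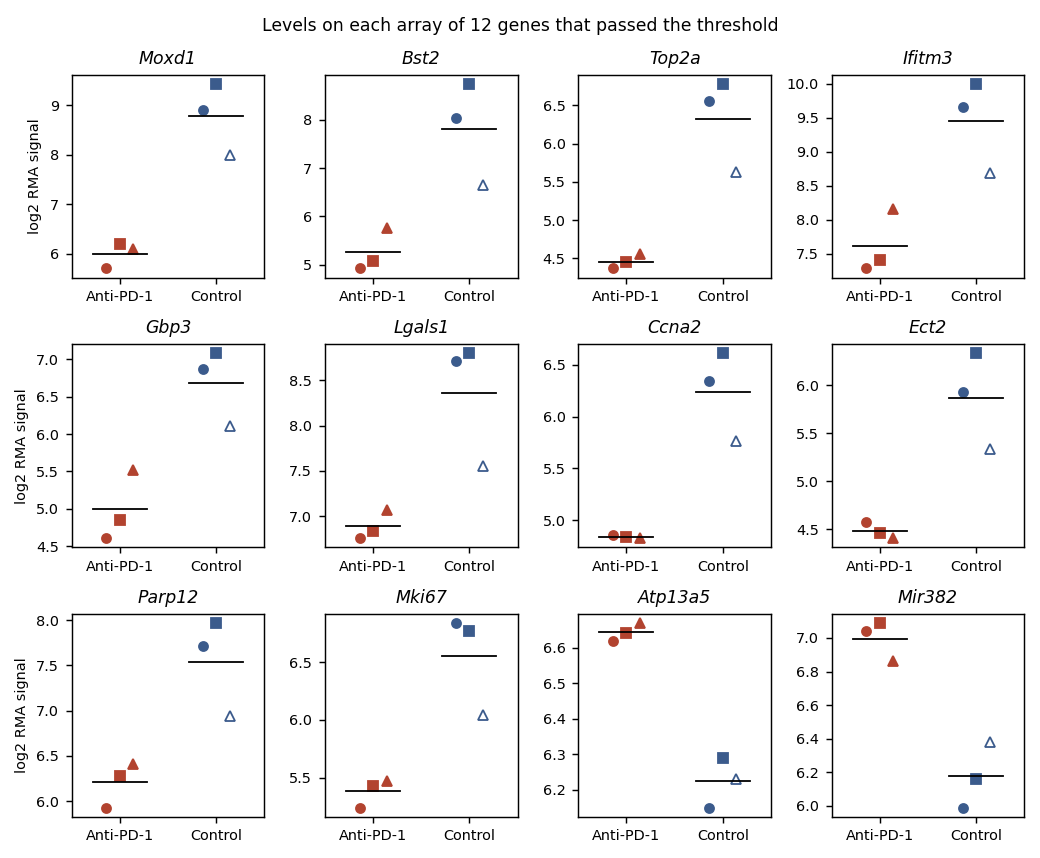
Log2 RMA signal (vertical axes, scaled to each gene) of 12 genes that passed the threshold, with a point per array, Anti-PD-1 left and Control right; circles, squares and triangles are replicates 1, 2 and 3, the open triangle is Control replicate 3, and lines are group means. Groups do not overlap in any of the 12 genes, and Control replicate 3 is the Control array nearest to Anti-PD-1 in 11 of them, the exception being Atp13a5.

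Some of the largest differences did not pass. Gpnmb, a glycoprotein gene of lipid-laden macrophages, had 5.09, 5.82 and 5.75 in Anti-PD-1 and 8.54, 9.27 and 7.34 in Control, the largest difference of all genes in size (-2.83 ± 0.55, adjusted p = 0.0561). The groups were more than 1 log2 unit apart, but the Control arrays differed among themselves by almost 2. Igtp, an immunity-related GTPase gene, had 4.50, 5.98 and 6.82 in Anti-PD-1 and 8.34, 8.90 and 7.08 in Control (-2.34 ± 0.62, adjusted p = 0.128). Cxcl10, a chemokine that attracts activated T cells, had 4.74, 5.45 and 5.61 in Anti-PD-1 and 7.80, 8.72 and 6.13 in Control (-2.29 ± 0.60, adjusted p = 0.127). In the higher direction, leaving aside predicted genes, receptor families and small RNAs, the largest differences were those of the noncoding Platr25 (0.76, adjusted p = 0.1), the serotonin transporter gene Slc6a4 (0.71, adjusted p = 0.656), the zinc finger gene Zfp932 (0.69, adjusted p = 0.0653), the serotonin synthesis gene Tph2 (0.66, adjusted p = 0.709) and Zfp759 (0.65, adjusted p = 0.0553). Slc6a4 and Tph2 overlapped between the groups and were lower in sign with the neuron marker score as a covariate (-0.44 and -0.30), whereas the zinc finger genes lay apart.

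Lists of genes with known roles were then described by how many of their measured members passed, how many lay apart and their median difference. The lists and their members were chosen with earlier results of these data known. Their shares beside those of all genes are therefore descriptions and not independent tests. Over all 22180 genes, 0.212% were called lower and 0.0812% higher, 8.33% lay apart lower and 10.3% lay apart higher. A list score is the mean over the list of each gene's log2 signal minus its mean over all 12 arrays. Interferon-induced effectors had 51 measured members. Of these, 4 fell (Bst2, Ifitm3, Gbp3 and Parp12), 0 rose, 32 had Anti-PD-1 arrays below all Control arrays (62.7%), and 49 were lower in sign. Their median difference was -0.79, against 0.0078 for all genes. Scores were -0.68, -0.50 and -0.16 on the Anti-PD-1 arrays and 0.60, 0.93 and -0.03 on the Control arrays, so the replicates 3 of both groups were close. Leaving out Control replicate 1, 2 or 3 gave medians of -0.69, -0.60 and -0.99.

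Upstream of these effectors, genes of the interferon pathway differed by role. The ligand genes had a median of -0.01 over 5 members, with Ifng, the interferon gamma gene, at 4.43, 4.64 and 4.32 in Anti-PD-1 and 4.54, 4.67 and 4.64 in Control (-0.15 ± 0.08, adjusted p = 0.442). The receptors had a median of -0.12 over 6 members, of which 5 were lower in sign, 2 lay apart lower and 0 apart higher. The kinases Jak1, Jak2 and Tyk2 were at 0.10, -0.07 and 0.06, and 1 of them lay apart higher. None of these genes was called, and Ifng overlapped between the groups. The ligand genes had a mean level of 5.04, below the median gene mean of 5.72. The 9 transcription factors had a median of -0.70, and 6 of them lay apart in the lower direction, with 0 called. Irf7, which drives the type I interferon genes, had 6.01, 5.54 and 6.19 in Anti-PD-1 and 7.52, 7.92 and 6.56 in Control (-1.42 ± 0.32, adjusted p = 0.0885). Irf9, the DNA-binding subunit of the complex that type I interferon activates, was at -0.74 ± 0.16 (adjusted p = 0.0815), and Irf1, the factor induced by interferon gamma, at -0.81 ± 0.20 (adjusted p = 0.101). In each of these factors the lowest Control array was replicate 3. Irf2, a repressor of the same sites, and Irf3, which is activated by phosphorylation, were at 0.08 and 0.12. Among inhibitors, Usp18, which removes ISG15 and blocks the type I receptor, had 5.03, 5.20 and 6.07 in Anti-PD-1 and 7.66, 8.11 and 6.48 in Control (-1.98 ± 0.40, adjusted p = 0.0616). Socs1, which inhibits the JAK kinases, was at -0.35 (adjusted p = 0.223). Of 9 nucleic acid sensors all were lower in sign, and Zbp1, which senses Z-form nucleic acids, was at -1.76 ± 0.33 (adjusted p = 0.0553).

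Effector families differed in the size of the difference. The immunity-related GTPases Irgm1, Irgm2, Igtp and Iigp1, which act on vacuoles of intracellular microbes, all lay apart, with a median of -2.03 and 0 called. Irgm1 had 4.92, 5.06 and 5.43 in Anti-PD-1 and 7.10, 7.32 and 5.95 in Control (-1.65 ± 0.32, adjusted p = 0.056). Of 8 guanylate-binding protein genes, 1 fell (Gbp3) and 5 lay apart lower, with a median of -1.20, and Gbp6 was at 0.03. Oligoadenylate synthetases, which activate the nuclease RNase L, had a median of -0.62 over 6 members, the lowest being Oasl2 at -1.98 (adjusted p = 0.0759). Among the other antiviral genes, Ifit1 was at -1.61 (adjusted p = 0.056), the ubiquitin-like modifier gene Isg15 at -1.17 (adjusted p = 0.0605) and Mx1 at -0.44 (adjusted p = 0.0587). Ifitm1 and Ifitm2, close relatives of Ifitm3, were at 0.11 and -0.26 (adjusted p = 0.65 and 0.769). Genes of these families resemble each other in sequence, and whether a probe set also binds a relative's transcript was not tested.

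The promoters of 2 fallen effectors are shown because they carry the interferon-stimulated response element (ISRE), searched on both strands as GAAA, any 2 bases and GAAA, a site bound by factors of the interferon response such as IRF9. Windows run from 250 bases before to 50 bases after the RefSeq start in GRCm38.p6, and capitals mark the matches.
Bst2 promoter, chr8:71537423-71537722, minus strand: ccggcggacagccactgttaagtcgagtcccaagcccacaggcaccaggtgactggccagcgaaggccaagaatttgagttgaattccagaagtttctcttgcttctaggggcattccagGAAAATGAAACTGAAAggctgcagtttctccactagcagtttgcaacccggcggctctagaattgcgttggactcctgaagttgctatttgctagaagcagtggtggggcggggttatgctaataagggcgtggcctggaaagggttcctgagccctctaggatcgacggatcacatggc
Gbp3 promoter, chr3:142559794-142560093, plus strand: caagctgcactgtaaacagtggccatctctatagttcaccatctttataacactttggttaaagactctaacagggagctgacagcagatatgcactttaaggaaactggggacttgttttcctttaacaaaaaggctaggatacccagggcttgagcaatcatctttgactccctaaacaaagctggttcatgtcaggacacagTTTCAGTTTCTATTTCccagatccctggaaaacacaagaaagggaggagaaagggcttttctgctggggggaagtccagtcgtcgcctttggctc
Bst2 has 2 overlapping matches that begin 130 and 124 bases before the start, and they overlap a match to the gamma-activated site TTCNNNGAA. Gbp3 has 2 that begin 45 and 39 bases before it, and a second annotated start of Gbp3 has none in its window. Of the 51 effectors, 38 had a promoter window by symbol, and 21 of them held the element (55.3%), against 3.87% of the 16990 array genes with a window. The effectors with it had a median difference of -1.23, and the 17 without it -0.66. Of the 47 genes called lower, in or outside the list, 37 had a window and 4 of those held the element (10.8%). A gamma-activated site stood in 28.9% of effector windows, against 9.15% of array genes. These are matches of letters only, and binding was not measured.

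Cell division genes were the other large set of falls. The mitosis list had 61 measured members, of which 11 fell and 0 rose. In that list 46 lay apart lower (75.4%, against 8.33% of all genes) and 1 apart higher. Its median difference was -0.56, and -0.70 without Control replicate 3. Scores lay between -0.17 and -0.15 on the Anti-PD-1 arrays and were 0.50, 0.64 and 0.14 on the Control arrays, so all Anti-PD-1 arrays were nearly equal and below Control replicate 3. Beside Ccna2, Ect2, Top2a, Mki67 and Ckap2, the called members were Hmmr, which binds spindle microtubules (-0.86 ± 0.11, adjusted p = 0.0184), the midzone crosslinker Prc1 (-1.07), the kinesin Kif20a (-0.98), the anaphase activator Cdc20 (-0.91), the centromere kinesin Cenpe (-0.76) and the spindle kinase Aurka (-0.60), the last 5 with adjusted p from 0.0421 to 0.0479. Hmmr had 3.10, 3.05 and 3.10 in Anti-PD-1 and 4.14, 4.06 and 3.63 in Control, all below the median gene mean of 5.72. It was called in 7 of 12 fits with 1 array left out. By role, spindle and cytokinesis genes had a median of -0.77 (4 of 11 called), cyclins, kinases and factors -0.60 (2 of 15), kinetochore and checkpoint genes -0.56 (0 of 10), kinesins -0.49 (2 of 11), protein degradation genes -0.49 (1 of 4) and chromatin and condensation genes -0.48 (2 of 10).

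The DNA replication and G1/S list had 38 measured members, of which 2 fell, 0 rose and 22 lay apart lower (57.9%). The median was -0.36. Ccnd1, the gene of cyclin D1, which starts the cycle with CDK4 and CDK6, had 7.31, 7.50 and 7.38 in Anti-PD-1 and 8.22, 8.51 and 7.95 in Control (-0.83 ± 0.13, adjusted p = 0.0352). Rrm1, the large subunit of ribonucleotide reductase, had 6.47, 6.67 and 6.74 in Anti-PD-1 and 7.13, 7.09 and 6.95 in Control (-0.43 ± 0.08, adjusted p = 0.04997). The groups did not overlap in either gene. All 15 licensing and helicase genes were lower in sign, with Mcm3 at -0.80 (adjusted p = 0.0553), Mcm10 at -0.50 (adjusted p = 0.0553) and 11 apart. The cell cycle inhibitors Cdkn1a and Cdkn2a, which restrain cyclin-dependent kinases, were lower in sign too, at -0.46 and -0.44 (adjusted p = 0.128 and 0.133). Myc, the growth factor-responsive transcription factor, had 6.01, 6.25 and 6.34 in Anti-PD-1 and 6.95, 7.03 and 6.64 in Control and fell by 0.67 (SE 0.11, adjusted p = 0.0432). The other 20 measured members of its list, mainly nucleolar proteins, were not called, with Npm1 at -0.35 (adjusted p = 0.1).

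**Figure D3:**
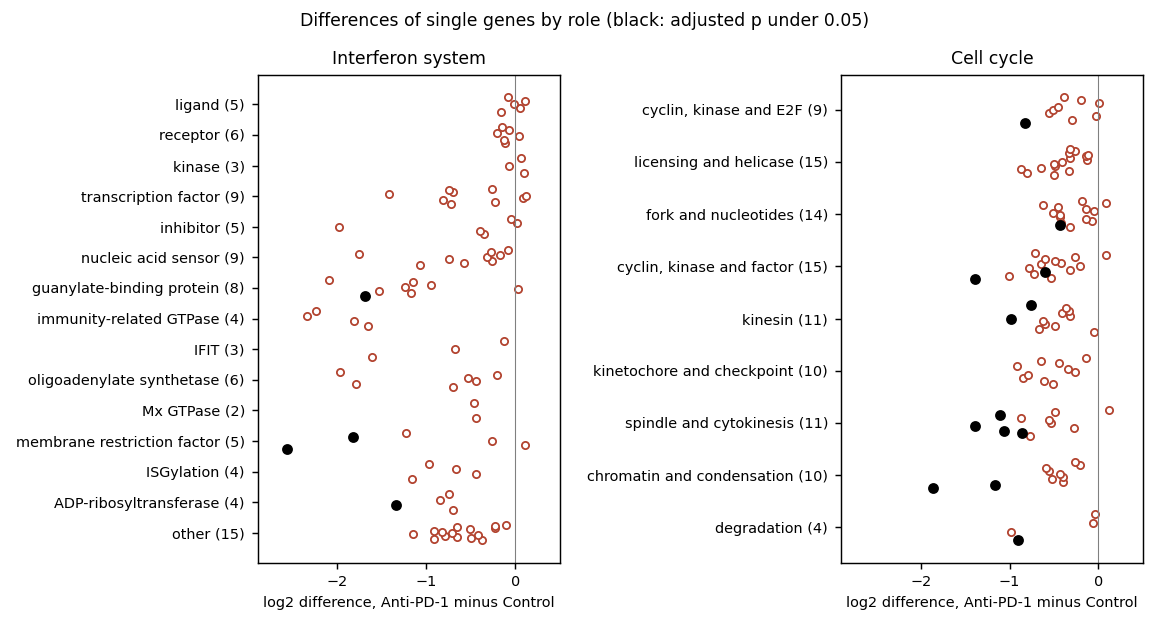
Log2 difference, Anti-PD-1 minus Control (horizontal axes), of each measured gene of the interferon system (left) and the cell cycle (right), a row for each role with its number of genes; filled black points passed adjusted p under 0.05. Interferon ligands, receptors and kinases lie near 0 while most effectors lie below it, and 13 of the cell cycle genes are black.

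Promoters of 2 fallen mitosis genes are shown for the cell cycle genes homology region (CHR), searched on both strands as TTTGAA, the site through which the DREAM and MuvB complexes time mitotic transcription. Windows, build and source are as above, and capitals mark the matches.
Top2a promoter, chr11:99024140-99024439, minus strand: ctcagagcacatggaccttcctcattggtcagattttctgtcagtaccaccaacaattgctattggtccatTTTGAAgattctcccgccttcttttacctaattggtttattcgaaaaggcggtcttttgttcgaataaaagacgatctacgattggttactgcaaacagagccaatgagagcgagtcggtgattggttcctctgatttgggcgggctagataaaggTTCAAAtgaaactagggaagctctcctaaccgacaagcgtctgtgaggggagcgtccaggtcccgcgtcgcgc
Mki67 promoter, chr7:135716330-135716629, minus strand: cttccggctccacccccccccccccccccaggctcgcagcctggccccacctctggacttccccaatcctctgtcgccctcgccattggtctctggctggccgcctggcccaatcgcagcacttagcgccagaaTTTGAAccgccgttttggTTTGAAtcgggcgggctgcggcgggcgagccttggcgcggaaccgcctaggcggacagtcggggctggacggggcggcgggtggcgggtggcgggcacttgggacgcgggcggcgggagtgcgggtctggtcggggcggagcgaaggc
In Top2a the matches begin 179 and 23 bases before the start, and in Mki67 116 and 98 bases before it. Of 61 mitosis genes, 52 had a window, and 36 of those held the motif (69.2%), against 17.8% of array genes. Those with it had a median difference of -0.58 and the 16 without it -0.47. Of the 47 genes called lower, in or outside the list, 37 had a window and 8 of those held the motif (21.6%). The CCAAT box, searched as CCAAT, was found in the same number of mitosis windows (69.2%), against 41.6% of array genes. The E2F motifs TTTCCCGC and TTTGGCGC were found in 10 of 31 replication gene windows (32.3%), against 2.37%.

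Markers of tumour cells and of their mesenchymal state were mostly lower in sign. Of 32 measured glioma, progenitor and mesenchymal genes, 2 fell, 0 rose and 14 lay apart lower (43.8%), with a median of -0.32. Ccn1, a matrix-associated signalling protein gene, had 5.91, 5.99 and 5.74 in Anti-PD-1 and 6.66, 6.74 and 6.44 in Control (-0.73 ± 0.11, adjusted p = 0.0387). Lgals1 was the other. Nes, the gene of the progenitor filament nestin, had 5.40, 5.38 and 5.35 in Anti-PD-1 and 6.06, 5.95 and 5.68 in Control (-0.52 ± 0.10, adjusted p = 0.0553), and Vim, the gene of vimentin, was at -1.16 ± 0.23 (adjusted p = 0.0611). Both lay apart. The mesenchymal members had a median of -0.48 over 20 genes, and the progenitor members -0.09 over 12. In a sample of whole tissue, fewer cells of a type and less RNA per cell cannot be told apart.

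The labels describe a tumour mass, and the neuron markers were present on all arrays, with a mean level of 9.85 to 9.89 on the Anti-PD-1 arrays and 9.71 to 9.83 on the Control arrays. Of 19 measured neuron markers 18 were higher in sign, 9 lay apart higher (47.4%) and 0 were called, with a median of 0.08. Snhg11, a noncoding RNA of neurons, had 10.14, 10.23 and 10.21 in Anti-PD-1 and 9.76, 9.65 and 10.01 in Control (0.39 ± 0.11, adjusted p = 0.138), and Gria2, an AMPA receptor subunit gene, was at 0.22 (adjusted p = 0.235). Neuron scores ranged from 0.02 to 0.06 in Anti-PD-1 and were -0.08, -0.12 and 0.00 in Control, so Control replicate 3 again lay nearest to Anti-PD-1. With the neuron score as a covariate limma called 0 genes, with 1055 at an unadjusted p under 0.05. The median differences were then -0.26 for interferon-induced effectors, -0.29 for mitosis and -0.17 for DNA replication genes, against -0.79, -0.56 and -0.36 without it. The part of neuron content in the falls above was not tested.

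**Figure D4:**
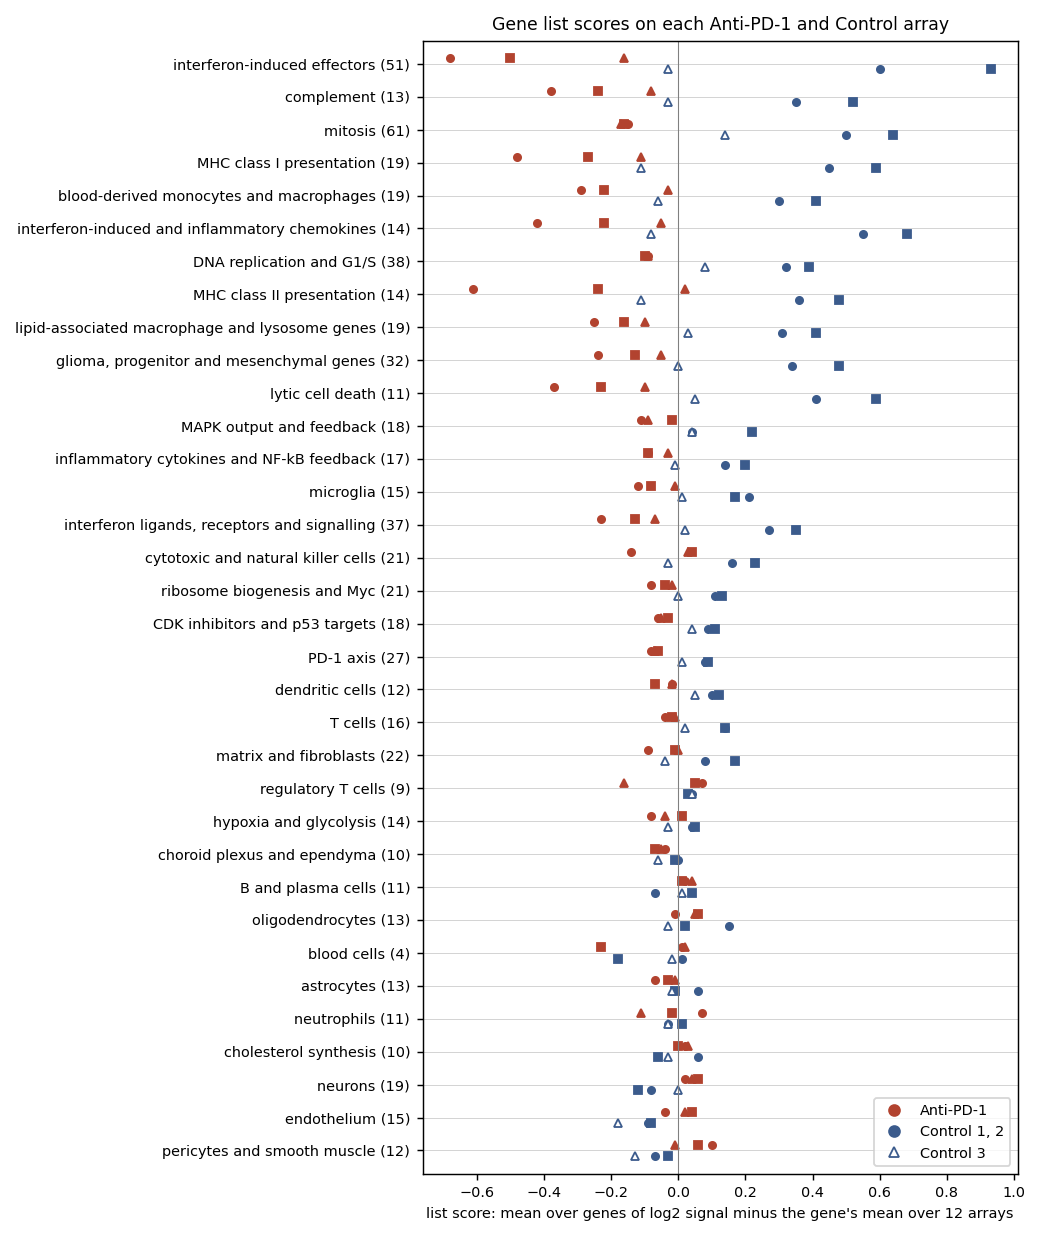
Scores of the 34 gene lists (horizontal axis, log2 units; number of measured genes in parentheses), ordered by median difference, with a point per Anti-PD-1 array above and per Control array below; the open triangle is Control replicate 3. In the interferon-induced effectors the Anti-PD-1 arrays score -0.68, -0.50 and -0.16 and Control replicate 3 scores -0.03, below the other Control arrays at 0.60 and 0.93.

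Genes of PD-1 signalling and of T cells had smaller differences, and 1 of them was called. Pdcd1 had 4.10, 4.15 and 4.44 in Anti-PD-1 and 4.69, 4.23 and 4.59 in Control (-0.28 ± 0.17, adjusted p = 0.517). Cd274 had 5.88, 5.92 and 6.31 in Anti-PD-1 and 6.58, 7.05 and 6.23 in Control (-0.58 ± 0.26, adjusted p = 0.355), and the second ligand gene Pdcd1lg2 was at -0.13 (adjusted p = 0.694). These genes overlapped between the groups. Of 27 measured genes of the PD-1 axis 0 were called and 3 lay apart lower (11.1%, near the 8.33% of all genes), with a median of -0.10. They include Tnfrsf9, the costimulatory receptor 4-1BB, at -0.37 ± 0.09 (adjusted p = 0.1), and Lag3, another inhibitory receptor, at -0.35 ± 0.13 (adjusted p = 0.264).

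Cd8a, the co-receptor of cytotoxic T cells, had 4.12, 4.17 and 4.42 in Anti-PD-1 and 4.19, 4.30 and 4.16 in Control (0.02 ± 0.10, adjusted p = 0.95). Cd3e, of the T cell receptor complex, had 4.39, 5.05 and 5.32 in Anti-PD-1 and 5.31, 5.50 and 5.20 in Control (-0.41 ± 0.19, adjusted p = 0.374), and Cd4 was at -0.21 (adjusted p = 0.512). Both overlapped. Of 16 T cell genes, 1 fell, which was Lcp2, an adaptor of T cell receptor signalling also used in myeloid cells, with 6.52, 6.49 and 6.62 in Anti-PD-1 and 7.08, 7.05 and 6.85 in Control (-0.45 ± 0.08, adjusted p = 0.0492). The list median was -0.09, or -0.05, -0.15 and -0.14 when Control replicate 1, Control replicate 3 or Anti-PD-1 replicate 2 was left out. Of 21 genes of cytotoxic and natural killer cells 0 were called (median -0.14, and -0.06 to -0.21 with 1 array left out). Gzmb and Prf1, the granzyme B and perforin genes, were at -0.25 and -0.04 (adjusted p = 0.677 and 0.891), and Cst7, a protease inhibitor of the granules, at -0.88 (adjusted p = 0.19). Foxp3, the regulatory T cell factor, had 4.65, 4.67 and 4.34 in Anti-PD-1 and 4.57, 4.58 and 4.57 in Control (-0.02 ± 0.17, adjusted p = 0.969). Il2ra, the interleukin-2 receptor gene of regulatory and activated T cells, had 4.18, 4.25 and 4.11 in Anti-PD-1 and 4.60, 4.51 and 4.55 in Control, which lay apart without passing (-0.37 ± 0.08, adjusted p = 0.0825). The mean level was 4.87 for the T cell list and 4.44 for the cytotoxic and natural killer list, below the median gene mean of 5.72. Among genes brighter than the median gene, the medians of these 2 lists were -0.35 and -0.55. A miss of the threshold does not show that these genes did not differ.

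Antigen presentation genes were mostly lower in sign, with 0 called in either class. Of 19 class I genes 6 lay apart lower (31.6%, against 8.33% of all genes) and the median was -0.53. Tap1, which pumps peptides into the endoplasmic reticulum, had 6.25, 6.29 and 6.63 in Anti-PD-1 and 7.92, 8.33 and 7.01 in Control (-1.36 ± 0.27, adjusted p = 0.0616). Psmb8, a subunit of the immunoproteasome, was at -1.34 ± 0.27 (adjusted p = 0.0631), and the nonclassical heavy chain gene H2-T23 at -0.94 ± 0.23 (adjusted p = 0.102). All 3 lay apart, with Control replicate 3 lowest among Control. Leaving out Control replicate 2 or 3 gave class I medians of -0.35 and -0.76. Of 14 class II genes 5 lay apart lower (35.7%) and the median was -0.34. Ciita, the master activator of class II transcription, had 5.45, 5.52 and 5.59 in Anti-PD-1 and 5.89, 6.03 and 5.75 in Control (-0.37 ± 0.07, adjusted p = 0.0615), and the lysosomal reductase gene Ifi30 was at -1.08 (adjusted p = 0.124).

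Chemokine genes followed. Of 14 measured, 0 were called and 5 lay apart lower (35.7%), with a median of -0.37, and -0.62 without Control replicate 3. Beside Cxcl10, the T cell attractant Cxcl11 was at -0.60 ± 0.14 (adjusted p = 0.0956), the B cell attractant Cxcl13 at -1.18 ± 0.27 (adjusted p = 0.0936) and the monocyte attractant Ccl12 at -1.20 ± 0.25 (adjusted p = 0.0631). Genes of lytic cell death included Mlkl, which pierces the membrane in necroptosis, with 4.11, 4.99 and 4.67 in Anti-PD-1 and 6.51, 6.81 and 5.48 in Control (-1.68 ± 0.32, adjusted p = 0.0567). All 11 members of that list were lower in sign, 4 lay apart (36.4%) and 0 were called. In the list of inflammatory cytokines and NF-kB feedback, 15 of 17 genes were lower in sign. Of these 17, 4 lay apart lower (23.5%, against 8.33% of all genes), 0 lay apart higher and 0 were called. The list median was -0.18. Nfkb2 and Icam1 had the smallest p in this list. Tnf and Il1b, inflammatory cytokine genes, came next, at -0.26 and -0.52, and overlapped between groups (limma adjusted p = 0.275 and 0.303).

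Among myeloid markers, the 15 microglia genes were all lower in sign, 8 lay apart (53.3%) and 0 were called. Their median was -0.17, or -0.12 without Control replicate 1. P2ry12, a purine receptor of resting microglia, had 7.57, 7.53 and 7.60 in Anti-PD-1 and 7.67, 7.65 and 7.53 in Control (-0.05 ± 0.09, adjusted p = 0.851). Olfml3 and Crybb1, also marker genes of microglia, were at -0.43 and -0.47 (adjusted p = 0.0631 and 0.0659) and lay apart. Of 19 genes of blood-derived monocytes and macrophages 1 fell, Plac8, with 4.03, 3.82 and 4.02 in Anti-PD-1 and 4.79, 4.75 and 4.39 in Control (-0.69 ± 0.10, adjusted p = 0.0326). The list median was -0.43 but -0.28 without Control replicate 2 and -0.24 without Anti-PD-1 replicate 1. Ly6c2, a surface marker of inflammatory monocytes, was at -0.998 ± 0.32 (adjusted p = 0.196). Complement genes had a median of -0.58 over 13 members, with Cfb, the alternative pathway factor B, at -0.82 ± 0.19 (adjusted p = 0.0885). Of 19 lipid-associated macrophage and lysosome genes 9 lay apart lower (47.4%) and 1 higher (5.26%), with 0 called. Lgals3, the galectin-3 gene, was among them at -0.72 ± 0.15 (adjusted p = 0.066). Ptprc, the CD45 gene of all leukocytes, had 4.89, 5.13 and 5.47 in Anti-PD-1 and 5.97, 5.90 and 5.34 in Control and overlapped (-0.57 ± 0.18, adjusted p = 0.196).

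Vessel markers leaned the other way. Of 12 pericyte and smooth muscle genes 1 rose (Atp13a5), 4 lay apart higher (33.3%, against 10.3% of all genes) and 0 lower. The median was 0.11, or 0.07 without Control replicate 3. Rgs5, a regulator of G protein signalling in pericytes, had 8.95, 9.01 and 8.95 in Anti-PD-1 and 8.60, 8.65 and 8.65 in Control (0.34 ± 0.08, adjusted p = 0.106). Both groups were tight and separate in this gene. Of 15 endothelial genes 5 lay apart higher (33.3%) and 0 were called (median 0.10). Tek, the angiopoietin receptor gene, was at 0.43 ± 0.14 and Slco1a4, a transporter of the blood-brain barrier, at 0.42 ± 0.15 (adjusted p = 0.209 and 0.258). Leaving out Control replicate 2 or 3 gave endothelial medians of 0.15 and 0.06. Medians of the oligodendrocyte, astrocyte, neutrophil, cholesterol synthesis and hypoxia lists lay between -0.04 and 0.02, and 0 of their members were called. The 13 astrocyte genes went both ways, from -0.59 to 0.14. Of them 2 lay apart lower (15.4%, against 8.33% of all genes) and 3 higher (23.1%, against 10.3%).

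MicroRNA genes made up 8 of the 18 rises, which was seen after the values were known. A microRNA is a short RNA that pairs through its seed, bases 2 to 8, with messenger RNAs and represses them. The probe sets measure transcripts of the gene and do not separate the mature form from its precursor. Mature forms of the called genes follow, from RefSeq in GRCm38.p6, with the seed in capitals; they are shown because these genes all rose and no 2 of the arms listed share a seed.
miR-382-5p, chr12:109733781-109733802, plus strand: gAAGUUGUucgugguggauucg
miR-376b-3p, chr12:109723508-109723528, plus strand: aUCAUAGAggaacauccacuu
miR-654-3p, chr12:109723270-109723291, plus strand: uAUGUCUGcugaccaucaccuu
let-7f-5p, chr13:48537889-48537910, minus strand: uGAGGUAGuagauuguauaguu
miR-99a-5p, chr16:77598940-77598961, plus strand: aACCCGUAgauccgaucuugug
miR-219a-5p, chr2:29845689-29845709, minus strand: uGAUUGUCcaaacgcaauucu
miR-23b-5p, chr13:63300492-63300512, plus strand: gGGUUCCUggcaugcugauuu
miR-325-3p, chrX:105379105-105379126, minus strand: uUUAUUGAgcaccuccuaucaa
Mir382, on chromosome 12, had 7.04, 7.09 and 6.86 in Anti-PD-1 and 5.99, 6.16 and 6.38 in Control (0.82 ± 0.12, adjusted p = 0.0327). Mir376b, from the same chromosome, had 5.99, 5.63 and 5.93 in Anti-PD-1 and 5.01, 5.07 and 5.25 in Control (0.74 ± 0.13, adjusted p = 0.04997). Mir654, also on chromosome 12, had 6.07, 6.27 and 6.22 in Anti-PD-1 and 5.64, 5.54 and 5.79 in Control (0.53 ± 0.09, adjusted p = 0.0431). All 3 lay apart, with Control replicate 3 highest among Control. Mirlet7f-1, on chromosome 13, had 3.61, 3.57 and 3.56 in Anti-PD-1 and 2.31, 2.95 and 2.60 in Control (0.96 ± 0.17, adjusted p = 0.04997). Of 12 measured genes that share its let-7 seed GAGGUAG 9 were higher in sign, with differences from -0.27 to 0.96. The Mirlet7f-1 signals were low, against a median gene mean of 5.72 and a lowest value of 1.24 on the arrays. Mir99a, Mir219a-2, Mir325 and Mir23b rose by 0.62, 0.60, 0.58 and 0.56, with adjusted p from 0.0472 to 0.04997.

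Over all 478 measured microRNA genes, 323 were higher in sign, 8 rose (1.67%, against 0.0812% of all genes), 0 fell and 84 lay apart higher (17.6%, against 10.3%). The median difference was 0.09. Of these genes 43 lie in the imprinted cluster between Meg3 and Dio3 on chromosome 12, which is expressed from the maternal chromosome and strongly in neurons. In the cluster 38 genes were higher in sign, 22 lay apart higher (51.2%), 0 lay apart lower and 3 rose, with a median of 0.39. Cluster scores were 0.05, 0.11 and 0.21 on the Anti-PD-1 arrays and -0.28, -0.36 and -0.11 on the Control arrays. They did not overlap. Rian, the long noncoding RNA of the same cluster, had 9.81, 9.78 and 9.86 in Anti-PD-1 and 9.44, 9.22 and 9.60 in Control (0.40 ± 0.09, adjusted p = 0.0935), and Meg3 was at 0.28 (adjusted p = 0.306). Dlk1, the neighbouring gene expressed from the paternal chromosome, was at 0.01 (adjusted p = 0.985). The neuron scores given above were higher on the same arrays, and their part in this result was not tested. Microarray signals of microRNA genes outside the cluster had a median of 0.07 over 435 genes.

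**Figure D5:**
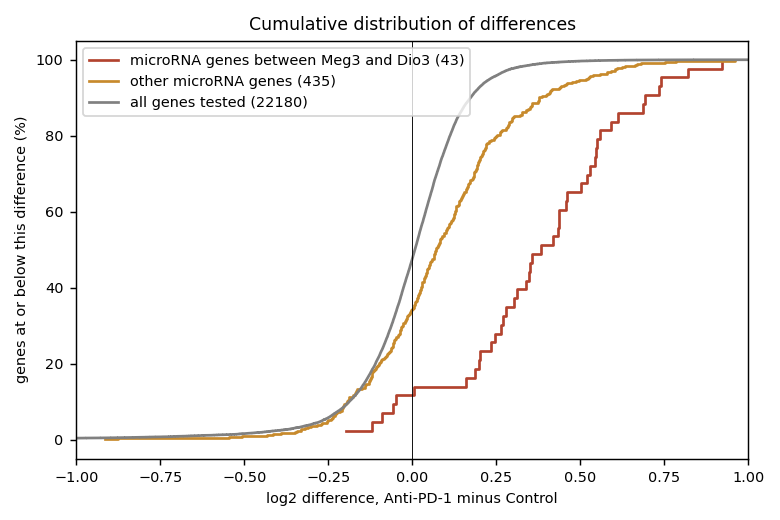
Cumulative share of genes (vertical axis, percent) by log2 difference, Anti-PD-1 minus Control (horizontal axis, shown from -1 to 1), for 43 microRNA genes between Meg3 and Dio3, 435 other microRNA genes and all 22180 genes. The medians lie at 0.39, 0.07 and 0.0078.

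Set directly against the other treated groups, with no Control array in the contrast, the Anti-PD-1 tumours had no called genes. Against TMZ 0 of 22180 genes passed in limma (0.0%), with 1000 at an unadjusted p under 0.05. Against Combination 0 passed (0.0%), with 1089 at an unadjusted p under 0.05. The Anti-PD-1 arrays lay apart in the higher and the lower direction in 4.39% and 4.38% of genes against TMZ, and in 5.67% and 4.87% against Combination. Leaving aside predicted genes, receptor families and small RNAs, the gene with the smallest p against TMZ was Wfikkn2, which encodes a protease inhibitor that binds myostatin, with 5.08, 5.10 and 4.86 in Anti-PD-1 and 4.47, 4.36 and 4.40 in TMZ (0.60 ± 0.10, adjusted p = 1.0). Against Combination it was Prss55, a serine protease gene, with 4.06, 3.81 and 3.97 in Anti-PD-1 and 3.50, 3.44 and 3.57 in Combination (0.44 ± 0.07, adjusted p = 0.325). Pou2f3 was higher in Anti-PD-1 in sign in both contrasts, at 0.29 ± 0.06 against TMZ and 0.33 ± 0.06 against Combination (adjusted p = 1.0 and 0.581). These contrasts share the Anti-PD-1 arrays with each other and with the comparison with Control. Mitosis scores were -0.07, -0.20 and -0.18 in TMZ and -0.11, -0.11 and -0.14 in Combination, so low scores were not particular to Anti-PD-1. Scores of interferon-induced effectors were 0.13, -0.32 and -0.19 in TMZ and -0.10, 0.12 and 0.18 in Combination. Those of the microRNA cluster on chromosome 12 were -0.10, 0.17 and 0.18 in TMZ and 0.04, 0.10 and -0.02 in Combination.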

How the data were processed

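The deposited values are log2 signals of 41345 probe sets on 12 arrays, made by the authors with RMA in the Affymetrix Expression Console, per the submitters' processing notes; versions and the probe annotation they used are not given in the sources used here. RMA on all arrays together forces equal distributions, so a change in total RNA cannot be seen. Of the probe sets, 23521 carried 1 gene symbol, 1814 several and 16010 were not listed. Genes with several probe sets (1082) kept the one with the highest mean, which left 22180 genes with no filter on brightness. Limma 3.58.1 in R 4.3.3 fitted a mean per group over all 12 arrays (8 residual degrees of freedom) with contrasts and default eBayes, two-sided, Benjamini-Hochberg over all genes, threshold 0.05. The procedure was tested on simulated data. Array correlations lay between 0.984 and 0.991. Exact symbols matched 656 of the 717 entries in 34 lists. Named genes were the 15 largest falls and rises past the threshold, the 5 largest of each in size and fixed genes of the PD-1 response. Predicted genes, receptor families and small RNAs were left out. The rule also took the 4 members of each list with the smallest p, but only some of these are named. Some lists near 0 are given by range. Others are not described, among them MAPK output and feedback (median -0.193, 33.3% apart lower) and dendritic cells (median -0.0892, 50.0% apart lower). MicroRNA genes, other list members and the genes in the closing section were chosen after their values were seen. The members and lists were chosen with earlier results of these data known. In all, 22 alternatives were tried. Promoter and microRNA sequences are from RefSeq (GRCm38.p6).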

Additional observations from a re-analysis of the deposited data

How the results depend on the processing

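No called gene named here changed direction in any alternative that gave it a value, whereas the number of calls moved. The 65 genes between Anti-PD-1 and Control became 381 with an intensity trend in the prior, 260 with array quality weights, 205 (92 higher, 113 lower) among genes brighter than the median gene (which kept 65 of the 123 genes named here), 43 after centring each array on its median (11 higher, 32 lower), 33 with a robust prior, 2 over all probe sets, and 0 both with only the 2 groups compared and after adjustment for the neuron score. In those last 2 fits 2672 and 1055 genes had an unadjusted p under 0.05. Leaving out single arrays gave 1 to 686. The mean of a gene's probe sets gave 64. Causes were not tested. The filter tests fewer genes and a fit without an array has fewer samples, and the part of either in these counts was not tested. Anti-PD-1 and Control arrays share only a replicate number: same-numbered deviations correlated between -0.162 and 0.0141, Anti-PD-1 replicates 1 and 3 correlated best with a Control array of another number, and the replicate block gave 20 genes (3 higher, 17 lower), 15 of them among the 65. Against TMZ and Combination the count was 0 in limma in every alternative.

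List medians also depended on the setting. Adjustment for the neuron score kept the sign of 28 of 34 and moved 21 by more than the spread between replicates (1 SD), with MHC class I at -0.12, complement at -0.12, monocytes and macrophages at -0.03 and glioma genes at -0.06. The filter on low values kept the sign of 31 of 33 and moved 8, with chemokines at -1.18 (-0.37 without the filter). It moved T cell genes from -0.09 to -0.35 and cytotoxic and natural killer genes from -0.14 to -0.55. The filter used each gene's mean over all arrays, Control included, so members high in Control passed it more easily. Lower medians after it therefore cannot show larger falls. CDK inhibitors and p53 targets moved toward 0, from -0.105 to -0.05.

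Some uncalled genes changed sign, among them Slc6a4 and Tph2, which were among the 5 largest differences in the higher direction. Adjustment for the neuron score gave 0.27 for Foxp3, 0.44 for Gzmb, 0.57 for Ifitm2, 0.054 for Jak2, -0.0802 for Meg3, 0.10 for P2ry12, 0.0439 for Prf1, -0.44 for Slc6a4, -0.30 for Tph2 and -0.0635 for Tyk2. Meg3 is itself a neuron marker in that score, so its adjusted value cannot be read as independent of the score. With 1 array left out, values ranged from -0.0724 to 0.078 for Cd8a, from -0.0309 to 0.054 for Dlk1 (-0.00474 after centring), from -0.0811 to 0.084 for Foxp3, from -0.11 to 0.163 for Gbp6 and from -0.00156 to 0.129 for Tyk2. None of these genes was called.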

Other observations

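The gene with the smallest adjusted p between Anti-PD-1 and Control was 3830403N18Rik, on the X chromosome, with 2.67, 2.66 and 2.72 in Anti-PD-1 and 3.96, 3.76 and 3.65 in Control (-1.11 ± 0.09 SE, limma adjusted p = 0.00161). It was called in 12 of 12 fits that left out 1 array. The predicted genes Gm15114 and Gm15127 on the same chromosome also fell, by 1.38 (SE 0.17, adjusted p = 0.0183) and 1.17 (SE 0.18, adjusted p = 0.0387). All 3 lay apart, with signals of at most 3.39 on the Anti-PD-1 arrays, which is low against the median gene mean of 5.72. They were named after their values were seen.

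Small nucleolar RNA genes, which guide the modification of ribosomal RNA, were mostly lower in sign. Of 80 measured, 61 were lower in sign, 8 lay apart lower (10.0%, near the 8.33% of all genes) and 5 higher (6.25%, against 10.3%), with a median of -0.13 and 0 called in limma, where 14 were lower and 5 higher at an unadjusted p under 0.05. The median was -0.23 without Control replicate 3.

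Further calls outside the lists were Adgrg6, an adhesion receptor gene, with 4.90, 5.18 and 5.02 in Anti-PD-1 and 6.09, 6.40 and 5.90 in Control (-1.09 ± 0.16, adjusted p = 0.0326), and Car6, a secreted carbonic anhydrase gene, with 3.89, 3.89 and 3.99 in Anti-PD-1 and 4.95, 5.25 and 4.79 in Control (-1.07 ± 0.14, adjusted p = 0.0183). The collagen gene Col11a1 and the mesenchymal transcription factor gene Prrx1 fell by 0.70 (SE 0.10, adjusted p = 0.0326) and 0.58 (SE 0.11, adjusted p = 0.04997). All of these lay apart, and none was named by the rule.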
